A study of Mus musculus with 11 samples.

Results

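ErbB receptors and the proteins that adjust their signal were followed as transcripts in mouse mammary carcinoma lines that keep, can lose or have lost human HER2. The 7 genes, fixed by symbol, were the receptors Erbb2, Erbb3, Erbb4 and Egfr, the adaptor Grb7, and the feedback inhibitors Errfi1 and Lrig1. All 7 were among the 21846 genes of the count table, and 6 had enough counts to be tested among 13782 genes, the exception being Erbb4. ErbB receptors are tyrosine kinases of the cell surface that signal as dimers. Egfr, Erbb3 and Erbb4 bind ligands of the EGF and neuregulin families, whereas Erbb2, the mouse counterpart of human HER2, has no known ligand and serves as the favoured partner of the others. Erbb3 has little kinase activity of its own and couples strongly to PI3 kinase once its partner has phosphorylated it. In HER2-positive breast cancer, ERBB2 is amplified together with its chromosomal neighbours, GRB7 among them, and trastuzumab, an antibody to the extracellular part of human HER2, is the standard targeted drug.

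RNA of 11 cultures was sequenced, 1 library for each. The lines came from mammary tumors of virgin female FVBhuHER2 mice, which carry a human HER2 transgene, so that all groups share the transgenic background. MamBo89 (HER2 stable, from tumor A) gave 4 libraries, which were an untreated culture, the untreated AG3 culture taken as the clone that the methods list, a culture kept in trastuzumab at 30 µg/ml for 60 days, and a culture with 30 days of trastuzumab followed by 30 drug-free days (the withdrawal schedule). MamBo43 (HER2 labile, from tumor B) gave 1 untreated library, and MamBo43 TRT gave 2 libraries of MamBo43 cells seeded at high density that had lost HER2 under the 60-day or the withdrawal schedule. The paper reports that a minority of HER2-positive cells persisted in MamBo43 cultures under continuous trastuzumab. Libraries said to be without HER2 are those that the methods list as HER2-negative. MamBo38 (HER2 loss, established from a tumor that injected MamBo43 cells had formed) gave 4 libraries, 2 untreated and 1 for each schedule. Each group is thus a single line, and the contrast between MamBo89 and the rest is also a contrast between tumors. The names of 3 MamBo38 libraries hold a code found nowhere else, the remaining 8 libraries sharing another, and values without those 3 are given where they matter. The count table lists mouse genes only, and whether reads of the human transgene were counted on mouse Erbb2 was not tested.

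Total counts per library ranged from 17040454 to 27127662. Levels are given as CPM, which are counts scaled to a common library size by the TMM method, and 3 counts, taken as the detection floor, were worth 0.113 to 0.179 CPM. Differences between groups are log2 fold changes from edgeR's quasi-likelihood test with their standard errors (SE), and genes past an adjusted p of 0.1 whose log2 fold change was 1 or more in size are said to be called. The labelled origin of the lines was checked with 9 markers of mammary epithelium, which summed to 2703 to 4046 CPM in MamBo89 and 3879 CPM in MamBo43. They summed to 2488 CPM in the withdrawal library of MamBo43 TRT, to 397.8 CPM in its 60-day library and to at most 3.01 CPM in MamBo38, so that MamBo38 carried next to none of the transcripts that define this tissue. A list of 8 fibroblast markers ran the other way, with 36.2 to 97.4 CPM in MamBo89, 357 CPM in MamBo43, 7400 to 8147 CPM in MamBo43 TRT and 4201 to 4982 CPM in MamBo38. The leukocyte list summed to 27.1 to 50.0 CPM in MamBo38 and to at most 16.9 CPM elsewhere, while its members Ptprc, Csf1r, Cd3e and Itgam were at 3 counts or fewer in every group. Basal markers summed to 114 and 623 CPM in MamBo43 TRT and to at most 50.2 CPM in the other groups, and endothelial and adipocyte markers summed to at most 0.781 and 2.72 CPM. What part these marker shifts had in the receptor values was not tested. In such bulk libraries, fewer cells with a transcript and less of it per cell cannot be told apart.

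Erbb2, the receptor with no ligand, was high wherever HER2 was present and low wherever it had been lost. The gene lies on the plus strand of chromosome 11 at 98412470 to 98437716 of GRCm38. Its level was 163 CPM in the AG3 library of MamBo89, 156 CPM in the untreated, 134 CPM in the withdrawal and 166 CPM in the 60-day library. The MamBo43 library had 117 CPM, below all 4 of these. MamBo43 TRT had 31.6 CPM on the withdrawal schedule and 19.9 CPM after 60 days, and MamBo38 had 19.1, 24.0, 18.5 and 17.8 CPM. The highest level without HER2 thus stayed well under the lowest level with it, and the libraries of MamBo43 TRT and MamBo38 overlapped. From MamBo89 to MamBo38 the log2 fold change was -2.96 (SE 0.17, adjusted p = 2.22e-07), a 7.79-fold fall, and from MamBo43 to MamBo43 TRT it was -2.19 (SE 0.26, adjusted p = 3.58e-04), a 4.55-fold fall. MamBo43 differed from MamBo89 by -0.40 (SE 0.26, adjusted p = 0.309) and MamBo43 TRT from MamBo38 by 0.38 (SE 0.19, adjusted p = 0.172), neither of which was called. With only the MamBo38 library that shares its name code with the other lines, the fall from MamBo89 was -2.68 (SE 0.33, adjusted p = 0.00136). Erbb2 was never near the floor, with at least 310 counts in each library. Whether these counts include reads of the human transgene was not tested, a limit that holds for every comparison of Erbb2 by HER2 status.

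**Figure D1:**
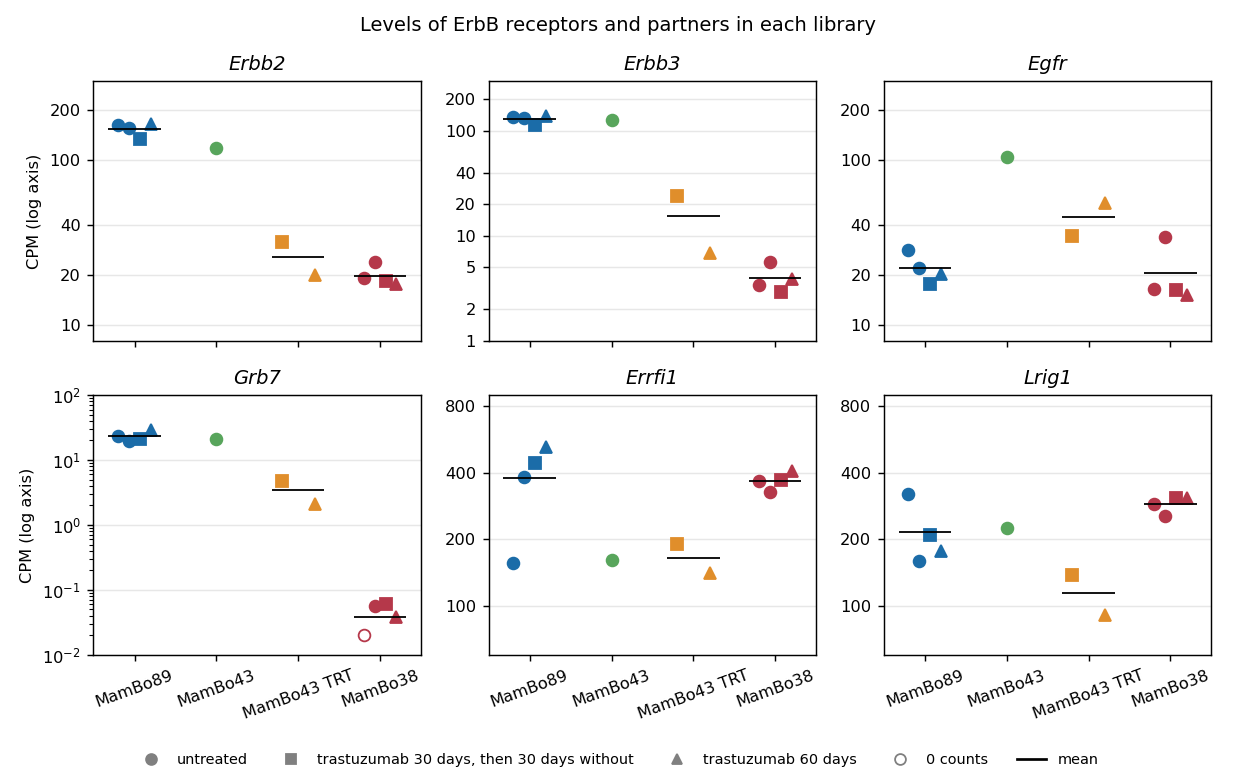
CPM of the 6 tested genes in each of the 11 libraries on log axes, with 1 point for each library, its shape giving the treatment, and black lines for the means of groups with more than 1 library. Erbb2, Erbb3 and Grb7 fall from MamBo89 and MamBo43 to MamBo43 TRT and MamBo38, Egfr peaks in MamBo43 at 103 CPM, and Errfi1 and Lrig1 follow neither course; the open point of Grb7 had 0 counts and is drawn at an arbitrary height.

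Erbb3, the receptor that recruits PI3 kinase, fell further than Erbb2 and split the cells that had lost HER2. It lies on the minus strand of chromosome 10 at 128567523 to 128589652. MamBo89 had 135 CPM in the AG3, 134 CPM in the untreated, 114 CPM in the withdrawal and 138 CPM in the 60-day library, and MamBo43 had 128 CPM, within that range. MamBo43 TRT had 23.9 CPM on the withdrawal schedule and 6.81 CPM after 60 days, while MamBo38 had 3.42, 5.69, 2.92 and 3.92 CPM. All levels of MamBo43 TRT lay above those of MamBo38 and below those of MamBo89. The log2 fold change was -5.03 (SE 0.38, adjusted p = 1.42e-06) in MamBo38 against MamBo89 and -5.00 (SE 0.44, adjusted p = 1.27e-05) against MamBo43. Between MamBo43 and MamBo43 TRT it was -3.06 (SE 0.53, adjusted p = 0.00232). MamBo43 TRT stood above MamBo38 by 1.94 (SE 0.39, adjusted p = 0.00514), a call that was lost with only the shared name code (1.43, SE 0.67, adjusted p = 0.218) and without the withdrawal library of MamBo43 TRT (0.79, SE 0.28, adjusted p = 0.0989). The withdrawal library, which had the higher Erbb3 level of the pair, also had the higher sum of epithelial markers (2488 against 397.8 CPM). In MamBo38, where Erbb3 was lowest, that sum was 1.49 to 3.01 CPM.

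Egfr, the classical receptor of EGF, TGF-alpha and amphiregulin, was highest in the labile line. Over both tumors its levels overlapped between libraries with and without HER2. It lies on the plus strand of chromosome 11 at 16752203 to 16918158. Its level was 103 CPM in MamBo43 and 34.4 and 54.9 CPM in the withdrawal and 60-day libraries of MamBo43 TRT. In MamBo89 it was 28.3 CPM in the AG3, 21.9 CPM in the untreated, 17.8 CPM in the withdrawal and 20.2 CPM in the 60-day library. In MamBo38 the untreated library with the shared name code had 34.1 CPM, and the other 3 had 16.4, 16.3 and 15.2 CPM. MamBo43 thus exceeded all other libraries, among them all those of tumor B that had lost HER2, and MamBo89 and MamBo38 overlapped. MamBo43 was higher than MamBo89 by a log2 fold change of 2.23 (SE 0.39, adjusted p = 0.00301), which is 4.69-fold, and MamBo38 was lower than MamBo43 by -2.34 (SE 0.39, adjusted p = 8.28e-04). The fall from MamBo43 to MamBo43 TRT was -1.21 (SE 0.47, adjusted p = 0.0727) and was lost without the withdrawal library (-0.94, SE 0.54, adjusted p = 0.230). MamBo38 and MamBo89 differed by -0.11 (SE 0.28, adjusted p = 0.760), and with only the shared name code this turned to 0.63 (SE 0.32, adjusted p = 0.166). MamBo43 TRT exceeded MamBo38 by 1.12 (SE 0.33, adjusted p = 0.0285), and with only the shared name code by 0.39 (SE 0.37, adjusted p = 0.553). Without the 60-day library of MamBo43 TRT that difference was 0.75 (SE 0.42, adjusted p = 0.256).

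Erbb4, a neuregulin receptor known for its role in lactation, was at or near the floor throughout. The gene spans 68032186 to 69108059 on the minus strand of chromosome 1. MamBo89 had 1 count in the AG3 library and 5, 4 and 5 counts in the others, MamBo43 had 1 count, and all 6 libraries of MamBo43 TRT and MamBo38 had 0. The mean of MamBo89 was 0.196 CPM ± 0.10 (SD, n = 4), and a count of 0 allows up to 0.179 CPM in the shallowest of the 6 libraries without HER2. Erbb4 did not pass the filter on low counts. In the edgeR fit without a filter, over 17370 genes, it was called lower in MamBo38 than in MamBo89 (adjusted p = 0.00959) and in the libraries without than with HER2 (adjusted p = 0.00773), and in no other comparison. No fold is given, since one side had 0 counts throughout.

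Divided by the length of their exons, the 4 receptors together amounted to 53.3 CPM per kb ± 4.76 (SD, n = 4) in MamBo89 and 52.9 CPM per kb in MamBo43. The sum was 13.1 and 9.80 CPM per kb in the withdrawal and 60-day libraries of MamBo43 TRT and 6.29 CPM per kb ± 1.53 (SD, n = 4) in MamBo38. In MamBo89 the make-up was nearly constant, with 55.7% ± 0.435 from Erbb2, 40.7% ± 0.585 from Erbb3 and 3.64% ± 0.562 from Egfr (SD, n = 4). MamBo43 reached the same sum with 42.6% from Erbb2, 40.2% from Erbb3 and 17.3% from Egfr. In MamBo43 TRT the share of Egfr was 23.2% on the withdrawal schedule and 49.5% after 60 days, while that of Erbb3 was 30.4% and 11.6%. In MamBo38, Erbb2 made up 61.6% ± 5.22, Egfr 28.0% ± 4.83 and Erbb3 10.5% ± 1.36 (SD, n = 4). The order of these per-length levels was Erbb2, Erbb3, Egfr in all 5 libraries that keep HER2 and in the withdrawal library of MamBo43 TRT, Erbb2, Egfr, Erbb3 in all 4 MamBo38 libraries, and Egfr, Erbb2, Erbb3 in the 60-day library of MamBo43 TRT. These shares are a description and were not tested.

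**Figure D2:**
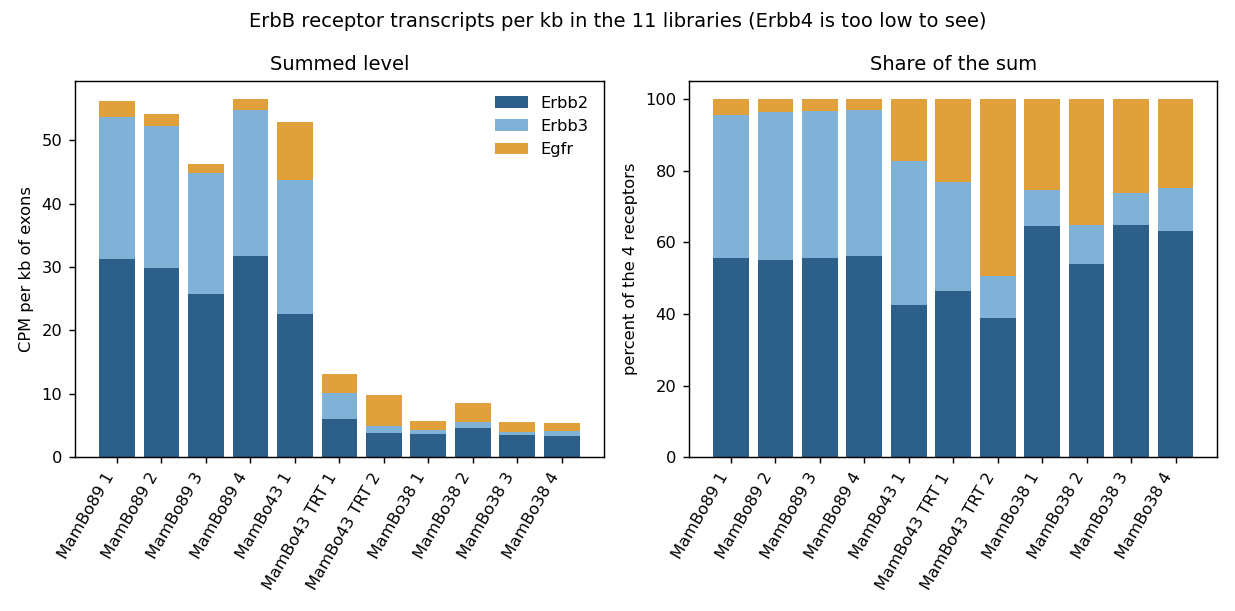
Stacked bars give, for each of the 11 libraries, the exon-length-corrected levels of Erbb2, Erbb3 and Egfr in CPM per kb (left) and their percentages of the sum of the 4 receptors (right). The sum falls from 46.3 to 56.5 CPM per kb in the libraries with HER2 to 5.41 to 13.1 CPM per kb in those without, and the Egfr share is at least 23.2% in all of the latter.

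Grb7, an SH2-domain adaptor that binds phosphorylated ErbB2 and ErbB3 and lies close to Erbb2 in the genome, went from moderate levels to the floor. It is on the plus strand of chromosome 11 at 98446394 to 98455373. MamBo89 had 23.1, 19.5, 20.9 and 29.2 CPM in the AG3, untreated, withdrawal and 60-day libraries, and MamBo43 had 20.9 CPM. MamBo43 TRT had 4.81 CPM on the withdrawal schedule and 2.10 CPM after 60 days. In MamBo38, 3 libraries had 1 count each and the other had 0. Since all MamBo38 libraries were under the floor of 3 counts in each library, the fold is a bound, at least 154-fold lower than MamBo89 and at least 139-fold lower than MamBo43. MamBo43 TRT was lower than MamBo43 by a log2 fold change of -2.60 (SE 0.46, adjusted p = 0.00254), which is 6.08-fold. MamBo43 and MamBo89 differed by -0.15 (SE 0.43, adjusted p = 0.847). The order of the groups was that of Erbb3, and over the 11 libraries Erbb3 and Grb7 were the most alike of the 21 pairs of genes, with a root mean square difference of 0.49 in centred log2(CPM + 0.5) against 0.96 for Erbb2 and Erbb3 and 1.23 for Erbb2 and Grb7.

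Errfi1 encodes Mig6, a cytoplasmic protein that binds and inhibits active ErbB kinases and is itself induced by their signal. It lies on the plus strand of chromosome 4 at 150853919 to 150868892. Its level was 155 CPM in the AG3 library of MamBo89 but 384, 443 and 526 CPM in the untreated, withdrawal and 60-day libraries. It was 161 CPM in MamBo43, 189.7 and 140.2 CPM in MamBo43 TRT, and 366, 327, 372 and 409.9 CPM in MamBo38. The AG3, MamBo43 and MamBo43 TRT libraries thus all lay below the other 7. MamBo38 exceeded MamBo43 by a log2 fold change of 1.20 (SE 0.52, adjusted p = 0.0845) and MamBo43 TRT by 1.16, the latter as -1.16 (SE 0.39, adjusted p = 0.0451) for MamBo43 TRT against MamBo38. Both calls were lost with only the shared name code, at 1.03 (SE 0.73, adjusted p = 0.347) and -0.99 (SE 0.61, adjusted p = 0.339). The first was also lost in 6 of the 10 fits that left out a single library, at adjusted p of 0.101 to 0.131 without any of the 3 MamBo38 libraries of the other code, the withdrawal library of MamBo43 TRT, or the untreated parental or withdrawal library of MamBo89. The second was lost without either MamBo43 TRT library. MamBo43 against MamBo89 gave -1.23 (SE 0.52, adjusted p = 0.121), and -1.44 (SE 0.24, adjusted p = 0.00148) without the AG3 library. Between MamBo43 and MamBo43 TRT the value was 0.04 (SE 0.52, adjusted p = 0.971).

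Lrig1, a transmembrane protein that promotes the ubiquitination and loss of ErbB receptors, was lowest in MamBo43 TRT. It lies on the minus strand of chromosome 6 at 94604529 to 94700158, and 1.24% of its 75-base stretches are shared with transcripts of Slc25a26. MamBo89 had 322, 159, 208 and 177 CPM in the AG3, untreated, withdrawal and 60-day libraries, MamBo43 had 225 CPM, MamBo43 TRT had 138 and 91.3 CPM, and MamBo38 had 288, 256, 307 and 309 CPM. Every MamBo38 library lay above both of MamBo43 TRT, while MamBo38 and MamBo89 overlapped through the AG3 library. MamBo43 TRT was lower than MamBo38 by a log2 fold change of -1.34 (SE 0.29, adjusted p = 0.00670), and by -1.16 (SE 0.44, adjusted p = 0.145) with only the shared name code. Against MamBo43 it was -0.98 (SE 0.37, adjusted p = 0.0689), just under the size required for a call, which DESeq2 gave at -1.01 (adjusted p = 0.0397) and the fit without the withdrawal library at -1.33 (adjusted p = 0.0446). MamBo38 against MamBo89 gave 0.42 (SE 0.22, adjusted p = 0.116).

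Promoter sequences are shown for the receptors that parted ways in MamBo43, Erbb2 and Egfr, and for both feedback inhibitors. They are the 250 bases before the RefSeq transcription start on GRCm38.p6, written 5′ to 3′ on the gene's strand. RefSeq promoters were matched for 5 of the 7 genes and not for Erbb3 and Grb7. Capitals mark matches to 3 motifs searched on both strands, namely GCCNNNGGC, the core recognised by AP-2 factors, CACCTG or CAGGTG, the E-box bound by Zeb and Snai repressors, and TATAAA, the TATA box. The windows are chr11:98412234-98412483 (plus strand) for Erbb2, chr11:16751953-16752202 (plus) for Egfr, chr4:150854820-150855069 (plus) for the downstream promoter of Errfi1, and chr6:94700146-94700395 (minus) for Lrig1.
Erbb2: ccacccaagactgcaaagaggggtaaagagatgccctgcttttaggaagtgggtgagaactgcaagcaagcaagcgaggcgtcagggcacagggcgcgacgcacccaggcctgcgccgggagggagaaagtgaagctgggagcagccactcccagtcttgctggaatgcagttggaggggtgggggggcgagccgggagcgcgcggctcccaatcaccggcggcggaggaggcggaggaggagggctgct
Egfr: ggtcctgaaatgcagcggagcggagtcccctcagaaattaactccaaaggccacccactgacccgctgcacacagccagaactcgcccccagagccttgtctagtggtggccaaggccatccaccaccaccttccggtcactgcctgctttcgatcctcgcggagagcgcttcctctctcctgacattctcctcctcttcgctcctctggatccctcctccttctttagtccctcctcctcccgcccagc
Errfi1: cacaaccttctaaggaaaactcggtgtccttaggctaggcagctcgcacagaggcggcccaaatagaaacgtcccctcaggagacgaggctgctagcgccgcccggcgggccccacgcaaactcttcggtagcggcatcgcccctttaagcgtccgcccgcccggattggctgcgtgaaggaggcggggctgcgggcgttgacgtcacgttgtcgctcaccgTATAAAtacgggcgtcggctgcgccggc
Lrig1: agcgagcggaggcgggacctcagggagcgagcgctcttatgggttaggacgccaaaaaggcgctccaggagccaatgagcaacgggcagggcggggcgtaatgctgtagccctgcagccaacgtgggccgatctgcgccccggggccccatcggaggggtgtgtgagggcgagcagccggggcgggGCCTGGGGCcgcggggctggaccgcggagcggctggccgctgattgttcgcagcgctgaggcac
Among these windows, that of Errfi1 held a TATA box 28 bases before the start and that of Lrig1 an AP-2 core at 64 bases before it. Erbb2, Egfr and Erbb4 held none of the 3 motifs within these 250 bases, nor did the upstream promoter of Errfi1. Of all 32851 promoter windows of this length, 13.7% held the AP-2 core, 17.2% the E-box and 12.4% the TATA box. GC content was 66% for Erbb2, 60.8% for Egfr, 64.8% for Errfi1 and 71.6% for Lrig1. A match is a run of letters and not evidence of binding.

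Counted over the comparisons, MamBo38 against MamBo89 called 3 of the 6 tested genes, Erbb2, Erbb3 and Grb7, all lower, where 41.9% of all genes were called and 22.0% were called lower. Without a threshold, the libraries of these 2 groups did not overlap for these 3 of the 6 tested genes, where 59.3% of all tested genes did not overlap and 30.5% were lower without overlap. MamBo43 TRT against MamBo43 called 4 of 6, Erbb2, Erbb3, Grb7 and Egfr, all lower, beside 29.1% of all genes and 15.5% called lower. MamBo38 against MamBo43 called 5 of 6, the same 4 genes lower and Errfi1 higher, beside 35.9% of all genes, 18.5% called lower and 17.4% called higher. The share of members called was thus near that of all genes in MamBo38 against MamBo89 and above it in MamBo43 TRT and MamBo38 against MamBo43. MamBo43 against MamBo89, both HER2-positive, called Egfr alone, higher, beside 18.9% of all genes, of which 1521 of 13782 were called higher and 7.86% lower. MamBo43 TRT against MamBo38, both HER2-negative, called 5 of 6, with Erbb3, Egfr and Grb7 higher and Errfi1 and Lrig1 lower in MamBo43 TRT, beside 20.4% of all genes, 10.2% in each direction. With only the shared name code, that comparison called 1 of 6, Grb7, beside 14% of all genes. These comparisons share libraries, among them the lone MamBo43 library, which the fit takes to vary like the other groups.

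**Figure D3:**
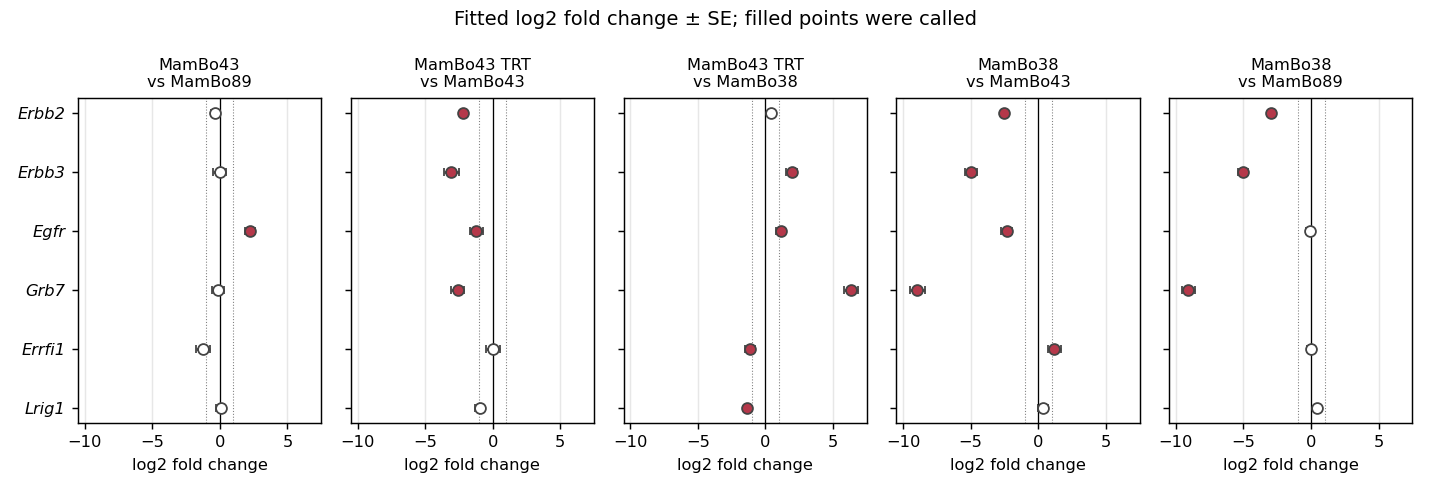
Fitted log2 fold changes of the 6 tested genes in 5 comparisons, with bars for 1 SE, filled points for calls and dotted lines at the required size. Erbb2 passes in 3 comparisons, each between cells with and without HER2, Egfr is higher in MamBo43 than in MamBo89 (2.23), and the values of Grb7 beyond -8 depend on the prior count and stand for the bounds given in the text.

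Grouped by HER2 status, with 6 libraries without and 5 with HER2, 3 of the 6 tested genes were called, all lower, beside 32.8% of the 12364 genes in that fit and 17.0% called lower. Erbb2 was at 21.8 CPM ± 5.29 (SD, n = 6) against 147 CPM ± 20.8 (SD, n = 5), a log2 fold change of -2.76 (SE 0.17, adjusted p = 1.32e-06). Erbb3 was at 7.78 CPM ± 8.05 without HER2 and 129.8 CPM ± 9.40 with it, a difference of -4.06 (SE 0.54, adjusted p = 1.17e-04). Grb7 was at 1.18 CPM ± 1.96 and 22.7 CPM ± 3.83, a difference of -4.26 (SE 1.20, adjusted p = 0.0116). The SD of Erbb3 and Grb7 without HER2 exceeded the mean, with both MamBo43 TRT libraries above all of MamBo38. The values of these 3 of the 6 tested genes did not overlap between the statuses, where 35.0% of the tested genes did not and 17.3% were lower without overlap. Egfr, Errfi1 and Lrig1 overlapped, with log2 fold changes of -0.43 (adjusted p = 0.514), -0.16 (adjusted p = 0.754) and 0.08 (adjusted p = 0.848). All libraries without HER2 come from tumor B, and with the tumor as a covariate Egfr was called at -1.86 (SE 0.54, adjusted p = 0.0287).

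Trastuzumab left no called difference in MamBo89 and MamBo38, where the pairs compared were mixed. The untreated pair of MamBo89 joined AG3 with the parental culture, and each treated pair joined both schedules. In MamBo38 both treated libraries held the name code that the other lines lack, and the untreated pair held 1 of each code. A lack of calls in such pairs does not show a lack of effect. In MamBo89, edgeR called none of the 6 tested genes in treated against untreated libraries (2 against 2) and 0 of 13782 genes in all, where 724 had an unadjusted p under 0.05 and DESeq2 called 29, none of the 6 among them. In MamBo38 edgeR called 0 genes as well, with 230 at an unadjusted p under 0.05 and 1 called by DESeq2, which was none of the 6. Erbb2 changed by -0.09 (SE 0.23, adjusted p = 0.915) in MamBo89 and by -0.25 (SE 0.24, adjusted p = 1.0) in MamBo38. The largest value of the 6 in MamBo89 was that of Errfi1, 0.85 (SE 0.37, adjusted p = 0.721). It was 1.64 when the untreated parental library was left out, so that the AG3 library alone stood for untreated cells. The same schedules in MamBo43, which lost HER2, went with the falls described above. As a difference between lines, the effect of trastuzumab on Erbb2 was lower in MamBo43 than in MamBo89 by -2.10 (SE 0.36, adjusted p = 0.0109), on Erbb3 by -2.97 (SE 0.74, adjusted p = 0.0325) and on Grb7 by -2.84 (SE 0.64, adjusted p = 0.0246), which are 3 of 6 tested genes beside 22.2% of all genes and 11.2% called lower. Against MamBo38, Erbb2 differed by -1.94 (SE 0.36, adjusted p = 0.0132) and Erbb3 by -2.67 (SE 0.78, adjusted p = 0.0567), beside 19.6% of all genes and 8.63% called lower. None of the other 4 genes was called by edgeR, but Grb7 lay at the floor in MamBo38 and could not be judged. Lrig1 was called in this difference by DESeq2 (-1.19, adjusted p = 0.0996) and by edgeR on only the groups compared (-1.18, adjusted p = 0.0432). The Erbb3 difference from MamBo89 was lost without its 60-day library (-2.83, SE 0.85, adjusted p = 0.101), and that from MamBo38 without any 1 of the 3 libraries of the other code (adjusted p = 0.112 to 0.181). Against MamBo89, Errfi1 was at -0.81 and Lrig1 at -0.66, and neither was called. In fits that left 1 untreated MamBo89 library, Lrig1 against MamBo89 was at -1.28 without AG3 and Errfi1 at -1.60 without the untreated parental library. Lrig1 against MamBo38 was at -1.17 and -1.16 in these fits.

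**Figure D4:**
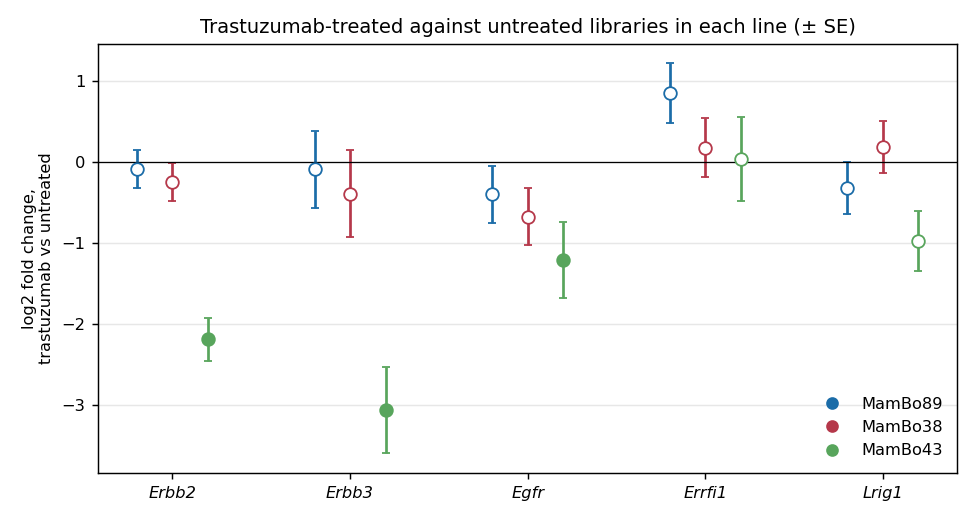
Log2 fold changes of trastuzumab-treated against untreated libraries within MamBo89 (2 against 2), MamBo38 (2 against 2) and MamBo43 (2 against 1), with bars for 1 SE and filled points for calls. Erbb2, Erbb3 and Egfr in MamBo43, at -2.19, -3.06 and -1.21, are the called values; Grb7 is left out because its MamBo38 libraries were at the floor.

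The schedules can be set side by side within MamBo43 TRT, with 1 library each and no test. Erbb2, Erbb3, Grb7, Errfi1 and Lrig1 were all higher in the withdrawal library than in the 60-day library, and Egfr was lower (34.4 against 54.9 CPM). The gap was widest for Erbb3, at 3.51-fold, and 1.35-fold to 2.28-fold for the others. For Erbb2 the 95% counting intervals, exact Poisson and covering counting error only, were 29.2 to 34.2 CPM and 18.2 to 21.7 CPM. In MamBo89, Erbb2, Erbb3, Grb7 and Errfi1 went the other way, with 134, 114, 20.9 and 443 CPM on the withdrawal schedule and 166, 138, 29.2 and 526 CPM after 60 days. Lrig1 (208 against 177 CPM) and Egfr (17.8 against 20.2 CPM) went the same way as in MamBo43 TRT. In MamBo38 the withdrawal library was lower for Erbb3 (2.92 against 3.92 CPM), Errfi1 (372 against 409.9 CPM) and Lrig1 (307 against 309 CPM) and higher for Erbb2 (18.5 against 17.8 CPM) and Egfr (16.3 against 15.2 CPM).

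Since Erbb2 and Grb7 lie close together, the 8 protein-coding genes on each side of Erbb2 were read as well. Of these 16, 8 were tested, and Neurod2, Tcap, Pnmt, Ikzf3, Zpbp2, Lrrc3c, Gsdma3 and Gsdma2 were too low. In MamBo38 against MamBo89, 6 of the 8 were called lower and none higher, beside 22.0% of all genes called lower, or 5 of 7 apart from Grb7. Grb7 led with the bound given above. Next came Ppp1r1b (DARPP-32, a phosphatase inhibitor), at -5.21 (SE 0.55, adjusted p = 1.46e-05), and Pgap3 (which remodels GPI anchors), at -2.43 (SE 0.23, adjusted p = 6.57e-06). Mien1 (a migration enhancer that adjoins the 3′ end of Erbb2 on the other strand), Ormdl3 (a regulator of sphingolipid synthesis) and Stard3 (a cholesterol transporter of late endosomes) were lower by -1.50, -1.05 and -1.04. In MamBo43 TRT against MamBo43, 4 of the 8 were called lower and none higher, beside 15.5% of all genes called lower, or 3 of 7 apart from Grb7. These were Ppp1r1b (-3.18, SE 0.64, adjusted p = 0.00491), Grb7, Stard3 (-1.32, SE 0.23, adjusted p = 0.00249) and Pgap3 (-1.18, SE 0.36, adjusted p = 0.0312). Mien1 instead gave 0.36 (SE 0.38, adjusted p = 0.510). In MamBo38 against MamBo43, both from tumor B, 3 of the 8 were called lower and none higher, beside 18.5% of all genes, or 2 of 7 apart from Grb7. These 2 were Ppp1r1b and Pgap3, while Stard3 (-0.95) and Ormdl3 (-0.75) were under the required size and Mien1 was at 7.16e-04 (SE 0.35, adjusted p = 1.0). Mien1 was already lower in MamBo43 than in MamBo89, both with HER2, by -1.51 (SE 0.38, adjusted p = 0.0197), whereas Ppp1r1b was higher by 2.46 (SE 0.53, adjusted p = 0.00893). The transcription kinase Cdk12 and the Mediator subunit Med1, the most distant of the tested genes upstream, were called in none of the 3, though Cdk12 reached -0.82 (SE 0.15, adjusted p = 8.94e-04) in MamBo38 against MamBo89, with levels of 51.1 CPM ± 4.84 and 130.6 CPM ± 12.0 in MamBo38 (SD, n = 4). Copy number was not measured in these libraries.

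**Figure D5:**
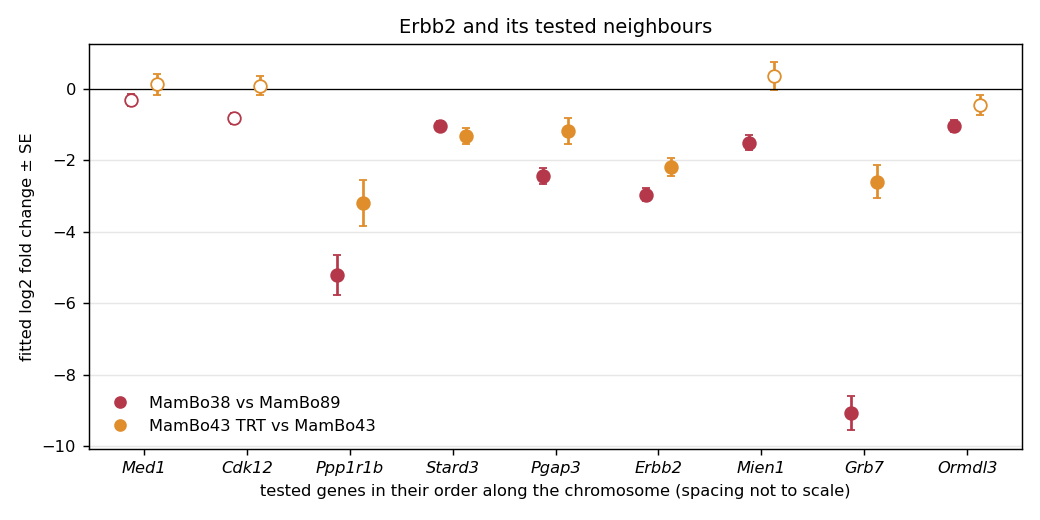
Fitted log2 fold changes of Erbb2 and its 8 tested neighbours in chromosomal order, with bars for 1 SE and filled points for calls, for MamBo38 against MamBo89 and MamBo43 TRT against MamBo43. Ppp1r1b, Stard3, Pgap3, Erbb2 and Grb7 are called lower in both, Mien1 and Ormdl3 in the former comparison, and Med1 and Cdk12 in neither.

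The rest of the ErbB pathway was read from fixed lists, each described by its counts and its median log2 fold change, beside a median over all tested genes of -0.07 in MamBo38 against MamBo89 and 0 in MamBo43 TRT against MamBo43. Of 10 tested ligands, 5 were lower and 2 higher in MamBo38 than in MamBo89 (median -1.88), beside 22.0% of all genes lower and 19.9% higher. Tgfa, an Egfr ligand, went from 94.9 CPM ± 9.15 in MamBo89 to 39.0 CPM in MamBo43, 11.1 CPM ± 8.23 (SD, n = 2) in MamBo43 TRT and 0 counts in all 4 MamBo38 libraries. Ereg, which activates Egfr and Erbb4, ran in the opposite direction, from 0.0258 CPM, under the floor, in MamBo89 to 2.15 CPM in MamBo43, 58.5 CPM ± 17.9 (SD, n = 2) in MamBo43 TRT and 138 CPM ± 29.1 (SD, n = 4) in MamBo38. In MamBo43 TRT against MamBo43, 3 of the 10 were lower and 2 higher (median -0.46), beside 15.5% of all genes lower and 13.6% higher. The neuregulin Nrg2, a ligand of Erbb3 and Erbb4, was at 31.8 CPM in MamBo43 and 9.04 CPM ± 3.37 (SD, n = 2) in MamBo43 TRT.

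Of 18 tested adaptors and PI3 kinase subunits, 5 were lower and 4 higher in MamBo38 than in MamBo89 (median -0.21), beside 41.9% of all genes called, and 5 were lower and 3 higher in MamBo43 TRT than in MamBo43 (median -0.19), beside 29.1%. Pik3r3, a regulatory subunit of PI3 kinase of the kind that binds phosphorylated Erbb3, went from 314 CPM ± 90.6 (SD, n = 4) in MamBo89 to 51.5 CPM in MamBo43, 5.31 CPM ± 0.502 (SD, n = 2) in MamBo43 TRT and 8.36 CPM ± 2.96 (SD, n = 4) in MamBo38. The adaptor Shc2 went the other way, from under the floor in MamBo89 (0.0513 CPM) to 42.8 CPM ± 9.53 (SD, n = 4) in MamBo38. Nck2, an SH2 and SH3 adaptor, fell like Pik3r3, from 459 CPM ± 93.2 in MamBo89 to 53.1 CPM ± 8.39 in MamBo38 (SD, n = 4 each). Of 20 tested genes of receptor turnover and feedback, 4 were higher and 3 lower in MamBo38 than in MamBo89 (median 0.03), beside 41.9% of all genes called. In MamBo43 TRT against MamBo43, 2 were higher and 4 lower (median -0.48), beside 29.1%. Among them Rnf41 (Nrdp1), the ubiquitin ligase that directs Erbb3 to degradation, was at 34.8 CPM ± 5.30 in MamBo89 and 35.6 CPM in MamBo43, and at 93.9 CPM ± 0.132 (SD, n = 2) in MamBo43 TRT and 108 CPM ± 12.2 (SD, n = 4) in MamBo38. Its log2 fold change was 1.64 (adjusted p = 2.3e-06) between MamBo89 and MamBo38. Lrig3, a relative of Lrig1, rose from 5.22 CPM ± 0.647 in MamBo89 to 78.6 CPM ± 10.5 in MamBo38 (SD, n = 4 each), with 15.8 CPM in MamBo43 and 68.0 CPM ± 0.196 (SD, n = 2) in MamBo43 TRT. Cblc, a ubiquitin ligase of epithelial cells, was at 16.6 CPM ± 3.64 in MamBo89 and 0.169 CPM ± 0.214 in MamBo38 (SD, n = 4 each).

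Of 12 tested genes that respond to ERK, the kinase downstream of ErbB receptors, 6 were lower and 3 higher in MamBo38 than in MamBo89 (median -0.57), beside 22.0% and 19.9% of all genes, and 5 were lower and 1 higher in MamBo43 TRT than in MamBo43 (median -0.60), beside 15.5% and 13.6%. None was called between MamBo43 and MamBo89, by edgeR, where 18.9% of all genes were. Dusp6, a phosphatase that dephosphorylates ERK, was at 549 CPM ± 146 (SD, n = 4) in MamBo89, 338 CPM in MamBo43, 108 CPM ± 0.540 (SD, n = 2) in MamBo43 TRT and 185 CPM ± 33.0 (SD, n = 4) in MamBo38. The immediate early factor Egr1 was at 1365 CPM in MamBo43 and 454 CPM ± 64.0 (SD, n = 2) in MamBo43 TRT. Fosl1, an AP-1 subunit, was 1 of the 3 called higher, going from 2.59 CPM ± 2.56 in MamBo89 to 314 CPM ± 106 in MamBo38 (SD, n = 4 each). Phlda1 and Spry4 were the others, with log2 fold changes of 1.17 and 1.16. Errfi1, also known as a target of ERK signalling, did not take part in the falls, as its values above show. Dusp4, Dusp6, Spry2 and Spry4 stand in both this list and that of feedback genes. Etv4 stands in both this list and the list of transcription factors below.

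Of 14 factors named as regulators of ErbB2 or ErbB3 transcription or of epithelial identity, 6 were lower and 3 higher in MamBo38 than in MamBo89 (median -0.095), beside 41.9% of all genes called, and 7 were lower and 3 higher in MamBo43 TRT than in MamBo43 (median -0.82), beside 29.1%. The epithelial factors Ehf and Grhl2 stood at 51.7 CPM ± 29.1 and 165.6 CPM ± 8.98 in MamBo89 (SD, n = 4), at 307 and 127 CPM in MamBo43, at 14.2 CPM ± 4.75 and 20.5 CPM ± 14.1 in MamBo43 TRT (SD, n = 2) and at 0.0139 and 0.0976 CPM, both under the floor, in MamBo38. The repressor Zeb1 was at 0.688 CPM ± 0.759 in MamBo89 and 2.86 CPM in MamBo43, and at 50.8 CPM ± 4.60 (SD, n = 2) in MamBo43 TRT and 106 CPM ± 5.74 (SD, n = 4) in MamBo38. Tfap2b, an AP-2 factor, had 0 counts in MamBo89 and MamBo38, 45.3 CPM in MamBo43 and 7.13 CPM ± 2.13 (SD, n = 2) in MamBo43 TRT. Its levels in the 4 groups, like those of Egfr, were highest in MamBo43 and next in MamBo43 TRT, though Egfr was detected in all groups. The AP-2 factor Tfap2c took another course, with 368 CPM ± 56.4 in MamBo89 (SD, n = 4) and 137 CPM in MamBo43. It was at 8.24 CPM ± 5.69 (SD, n = 2) in MamBo43 TRT and 3.12 CPM ± 2.69 (SD, n = 4) in MamBo38.

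Across the 11 libraries, the gene most like Erbb2 was Gdpd5, a phosphodiesterase, with a root mean square difference of 0.097 in centred log2(CPM + 0.5), where the median over all tested genes was 1.44. Gdpd5 was at 34.5 CPM ± 5.27 in MamBo89, 24.4 CPM in MamBo43, 5.37 CPM ± 1.70 in MamBo43 TRT and 4.05 CPM ± 0.517 in MamBo38. Rassf7 (0.204) and Echdc2 (0.243) followed. The genes most like Erbb3 were Jup, the junction protein plakoglobin (0.221), Mlph (0.302) and Ttc39a (0.315), against a median of 2.29. For Grb7 they were the kinase Tnk1 (0.172), the sorting receptor Sort1 (0.305) and Ppp1r26 (0.307), against a median of 2.46. Egfr was most like Zfp296 (0.302), the kinase Tec (0.326) and the protease Ctsf (0.328), at a median of 0.974, and Errfi1 most like Slc35e4 (0.240), Rasl10a (0.247) and Pced1a (0.255), at a median of 0.855. Lrig1 was most like the transcription factor Sox4 (0.201), the remodeller Chd7 (0.233) and the AP-2 factor Tfap2a (0.264), at a median of 0.763. These distances describe shared course over libraries of the same 3 lines and were not tested, and for Erbb4 its few counts make them uninformative.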

How the data were processed

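RNA from 11 cultures of MamBo cells was sequenced with a TruSeq RNA v2 kit, which does not mark strand, in 75-base single-end reads. Per the labels, the authors used bcl2fastq, STAR 2.5 and RSEM 1.3.0 with mm10, and deposited expected counts for 21846 genes, not normalized; all deposited values were whole numbers. Groups were taken from the labels. The genes and lists were chosen with earlier results of these data known, so no pattern here is independent support.

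Counts were tested in R 4.3.3 with edgeR 4.0.16 (filterByExpr with minimums of 10 for a count and 15 for a total, TMM, and the quasi-likelihood functions glmQLFit and glmQLFTest). Benjamini-Hochberg adjustment ran over all genes tested, and calls needed an adjusted p below 0.1 with a log2 fold change of 1 or more in size. The SE is the absolute log2 fold change over the square root of the F statistic. A fit of 4 groups gave the comparisons between groups, a fit by HER2 status the comparison of 6 with 5 libraries, and a fit of line by treatment the effects of trastuzumab. The code was checked on simulated counts. Nothing in the labels says that libraries of a group are separate experiments, so p-values measure only the spread between these libraries. The 3-count floor and the intervals cover counting error alone. Log2 fold changes use a prior count of 0.125.

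Named were every member, the Erbb2 neighbours, at most the 3 largest called changes for each pathway list and comparison, and for each member the 3 most similar genes. Genes that stand in more than 1 list were named as well. Alternatives were DESeq2 1.42.0, RLE size factors, no filter, at least 10 counts in each library, a threshold of 0.05, robust estimation, only the groups compared, the name code or the tumor as covariate, the shared code only, and leaving out each library; untreated libraries only was added after seeing the data. Gene positions are from GENCODE M21 on GRCm38, and promoters from RefSeq on GRCm38.p6.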

Additional observations from a re-analysis of the deposited data

Results flagged for a closer look

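In groups of 4 libraries, the highest or lowest library was set against the others for each gene, in 14 groups, where chance marks about 1 in 20. The Erbb3 level of 114 CPM in the withdrawal library of MamBo89 lay apart from the other 3 (134 to 138 CPM). The Egfr level of 34.1 CPM in the untreated MamBo38 library with the shared name code lay apart from 15.2 to 16.4 CPM in the others.

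The difference between the effects of trastuzumab in MamBo43 and MamBo89 passed the test for Erbb3 (-2.97, adjusted p = 0.0325), Grb7 (-2.84, adjusted p = 0.0246) and Erbb2 (-2.10, adjusted p = 0.0109), on the log2 scale. That between MamBo43 and MamBo38 passed for Erbb3 (-2.67, adjusted p = 0.0567) and Erbb2 (-1.94, adjusted p = 0.0132). All 5 differences rest on the lone untreated MamBo43 library.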

How the results depend on the processing

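MamBo43 has a lone library and MamBo43 TRT 2, and depth limits Erbb4, and Grb7 in MamBo38, which lay at or near the floor. No paired analysis was made, and the labels give no replicate numbers. Fits without MamBo43 for its own comparisons, and trastuzumab in MamBo38 with the shared name code only, could not be made. Over the alternatives, 1098 log2 fold changes of members kept their direction and side of the threshold, 33 lost it, 14 gained it and 36 changed sign, none of the last being a called value. The number of members called stayed within 1.5 times in 186 cases and moved in 13. Without the filter on low counts Erbb4 was tested too and called in MamBo38 against MamBo89 and by HER2 status, with 4 calls instead of 3 in each. DESeq2 called 2 instead of 1 in MamBo43 against MamBo89 and 1 instead of 3 by HER2 status, where Erbb3 and Grb7 had no adjusted p. In MamBo43 TRT against MamBo38, 5 calls became 2 with the name code as covariate, 1 with the shared code only, and 2 with untreated libraries only in MamBo89 and MamBo38, an alternative chosen after seeing the data. The trastuzumab effect in MamBo43 less that in MamBo38 kept 1 call of 2 at the 0.05 threshold. Leaving out single libraries gave 3 to 5 calls in MamBo43 TRT against MamBo38, 1 to 2 in MamBo43 against MamBo89, 0 to 1 for trastuzumab in MamBo89, and 1 to 3 for the effect in MamBo43 less that in MamBo38.

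These log2 fold changes reversed. With the name code as covariate, Egfr was 0.63 in MamBo38 against MamBo89 and 0.10 by HER2 status, Lrig1 -0.44 by HER2 status, and Erbb3 0.013 for trastuzumab in MamBo38. With the shared code only, Egfr was 0.63 and 0.11 and Lrig1 -0.42 in the same comparisons. With untreated libraries only, Egfr and Errfi1 were 0.0050 and 0.36 in MamBo38 against MamBo89, Lrig1 -0.095 in MamBo43 against MamBo89, and Errfi1 and Lrig1 0.14 and -0.27 by HER2 status. Errfi1 was 0.90 by HER2 status with the tumor as covariate, and Erbb3 0.0080 in MamBo43 against MamBo89 with only those groups. Without single libraries, MamBo38 against MamBo89 ranged from -0.46 to 0.047 for Egfr and -0.28 to 0.17 for Errfi1. Errfi1 ranged from -0.22 to 0.24 in MamBo43 TRT against MamBo43 and -0.39 to 0.070 for the effect in MamBo43 less that in MamBo38. MamBo43 against MamBo89 ranged from -0.087 to 0.041 for Erbb3 and -0.066 to 0.37 for Lrig1. By HER2 status the ranges were -0.72 to 0.37 for Egfr, -0.33 to 0.064 for Errfi1 and -0.022 to 0.28 for Lrig1. Trastuzumab in MamBo89 gave -0.25 to 0.057 for Erbb2, -0.23 to 0.037 for Erbb3, -0.027 to 0.46 for Grb7 and -0.74 to 0.28 for Lrig1, and in MamBo38 -0.72 to 0.012 for Erbb3 and -0.24 to 3.16 for Grb7. By HER2 status, Grb7 with untreated libraries only missed the threshold (-3.60, adjusted p = 0.106). The cause was not tested.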
